A study of Mus musculus with 2 samples.

Results

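The genes described here are 40 markers of the dividing cell, 18 of S phase (DNA replication) and 22 of G2 and mitosis (G2/M), taken as a list of gene names; all 40 were among the 31053 genes of the count matrix. They were followed in 5 groups of cells of the mouse incisor: mesenchymal, epithelial, erythroid, B and myeloid cells. The tissue came from the lower incisors of untreated C57BL/6 mice of 4 weeks: pulp was isolated with the dental epithelium, digested with collagenase type I and barcoded as single cells with 10x Genomics 3′ chemistry, although the cells are labelled as dental mesenchyme. The labels name 2 lanes of what was deposited as 1 matrix, do not say how many animals were pooled and give no treatment or mutant, so there is 1 sample, no comparison between conditions and no test. A recovery of 10000 cells was aimed for, and 5336 barcodes had at least 500 detected genes.

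A cell that divides first copies its DNA and then separates the copies. In S phase the Mcm2 to Mcm7 proteins form the ring-shaped helicase that opens the double helix, Pcna is the sliding clamp that holds the polymerases on DNA, and Tyms, Rrm1 and Rrm2 make nucleotides. In G2 and mitosis Cdk1 with its cyclins Ccnb1 and Ccnb2 starts mitosis, Aurora and Polo kinases and kinesins build the spindle, and Cdc20 with the ubiquitin-conjugating enzyme Ube2c lets the anaphase-promoting complex destroy the cyclins. The mouse incisor grows throughout life from dividing mesenchymal and epithelial progenitors at its base, whereas mature odontoblasts and ameloblasts, which make dentine and enamel, have left the cell cycle.

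The proximal promoters of the G2/M and S genes differ in sequence, and 6 of them are shown: those of 5 G2/M genes whose levels are set side by side further on, and that of the helicase gene Mcm6 as an S gene with GC-rich words. A RefSeq window of 250 bases before to 50 bases after the transcription start (build GRCm38.p6) was found for 36 of the 40 genes, all but Gins2, Tpx2, Mcm4 and Aurkb. Each line below gives the 120 bases before the start on the gene's own strand, 5′ to 3′, with matches in capitals. The motifs searched on both strands were CCAAT, which reads ATTGG on the other strand, and TTTGAA, the core of the element known as CHR, which reads TTCAAA on the other strand. The GC-rich words GGCGGGAA, TTTCCCGC, TTTGGCGC and TTTCGCGC were searched as forms of the E2F site. The reverse complements of some GC-rich words overlap others, as at the first match in Mcm6.
Ccnb1 (chr13:100786487-100786606, minus strand): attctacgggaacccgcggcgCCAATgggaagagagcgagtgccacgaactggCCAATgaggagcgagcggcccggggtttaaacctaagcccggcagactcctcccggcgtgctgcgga
Ccnb2 (chr9:70421555-70421674, minus strand): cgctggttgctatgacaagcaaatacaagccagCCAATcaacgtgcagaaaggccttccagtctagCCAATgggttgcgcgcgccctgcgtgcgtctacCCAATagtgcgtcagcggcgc
Ube2c (chr2:164769809-164769928, plus strand): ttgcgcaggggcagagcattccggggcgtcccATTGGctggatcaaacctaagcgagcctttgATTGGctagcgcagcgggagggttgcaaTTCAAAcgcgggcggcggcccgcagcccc
Top2a (chr11:99024190-99024309, minus strand): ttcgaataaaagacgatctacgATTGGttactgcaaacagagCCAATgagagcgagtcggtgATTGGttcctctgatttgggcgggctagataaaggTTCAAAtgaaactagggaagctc
Cdc20 (chr4:118437344-118437463, minus strand): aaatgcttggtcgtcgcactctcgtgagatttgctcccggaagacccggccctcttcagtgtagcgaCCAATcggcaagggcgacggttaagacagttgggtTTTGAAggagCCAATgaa
Mcm6 (chr1:128359706-128359825, minus strand): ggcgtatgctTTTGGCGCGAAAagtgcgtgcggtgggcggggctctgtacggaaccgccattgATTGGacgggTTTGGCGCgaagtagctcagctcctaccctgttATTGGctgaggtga
Over the whole windows of 300 bases, TTTGAA was present in 14 of 20 G2/M genes and in 2 of 16 S genes, against 20.2% of the windows of 27025 genes. In 11 of those 14 it lay between 60 bases before and 20 bases after the start. CCAAT was present in 18 of 20 G2/M genes and 11 of 16 S genes, against 41.1% of all windows. At least 1 of the 4 GC-rich words was present in 8 of 16 S genes and in 1 of 20 G2/M genes (Cdk1), against 4% of all windows. The Ccnb1 window held CCAAT and no TTTGAA, whereas those of Ccnb2, Ube2c, Top2a and Cdc20 held both, that of Ccnb2 with its TTTGAA outside the printed stretch. These matches describe letters in a window and are not measured binding sites.

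The values are counts of unique molecular identifiers (UMIs), 1 per captured RNA molecule. After the removal of likely doublets and of cells that carried haemoglobin RNA without other erythroid markers, 4509 cells in 26 clusters remained, clustered without any gene of the cell cycle lists, and 4246 of them belonged to the 5 groups, which were named from marker genes and are therefore mesenchymal-like, epithelial-like and so on. Median depth was 7005 UMIs in 2203 mesenchymal cells, 9307 in 770 epithelial cells, 6593 in 64 erythroid cells, 1694 in 206 B cells and 3591 in 1003 myeloid cells. Haemoglobin made up 49.9% of erythroid UMIs and the enamel gene Amelx 15.9% of epithelial UMIs, so levels (CPM, UMIs of a gene scaled to a fixed total per group) are also given with genes above 1% of either side left out of both totals ("reduced totals"). Marker genes of the other groups were present in each group, at lower levels than in their own group. In erythroid cells 27 epithelial markers summed to 14282 CPM, with 10 of the 27 at 0, against 196797 CPM in epithelial cells. That erythroid sum was above those of the S genes (1686 CPM) and the G2/M genes (5956 CPM) in the same cells. The 39 mesenchymal markers summed to 753 CPM in erythroid cells, with 16 at 0. In myeloid cells B markers summed to 6775 CPM, against 21661 CPM in B cells. The part of such marker RNA in the results was not tested. Intervals are exact 95% intervals and cover counting error only.

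Over all UMIs, S and G2/M RNA were both highest in erythroid cells, followed by B cells, and lowest in epithelial and myeloid cells. The 18 S genes summed to 1686 CPM in erythroid, 960 in B, 618 in mesenchymal, 569 in myeloid and 355 in epithelial cells. The 22 G2/M genes summed to 5956 CPM in erythroid, 2482 in B, 1325 in mesenchymal, 884 in myeloid and 767 in epithelial cells. In such sums, fewer dividing cells and less RNA per dividing cell cannot be told apart. Near-empty droplets, which hold 1 to 20 UMIs and sample the free RNA of the suspension, had 299 CPM of S and 556 CPM of G2/M RNA, below each of the 5 groups over all UMIs. When genes above 1% of a group's own UMIs were left out of its own total, the droplets had 488 CPM of S RNA against 450 CPM in epithelial cells. For G2/M RNA these values were 908 against 973 CPM. On totals of this kind S RNA was 678 CPM in myeloid and 646 CPM in mesenchymal cells, the reverse of their order over all UMIs. Such totals need not leave out the same genes, so the order of such close values is uncertain.

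The balance of the 2 phases differed between the groups. Per G2/M UMI there were 0.467 S UMIs in mesenchymal cells (0.456 to 0.477) and 0.462 in epithelial cells (0.444 to 0.481). The ratio was 0.283 in erythroid cells (0.262 to 0.306), 0.387 in B cells (0.345 to 0.432) and 0.644 in myeloid cells (0.612 to 0.677). Erythroid and B cells thus held more G2/M RNA for their S RNA than dental mesenchyme, and myeloid cells held less. Against mesenchymal cells the log2 balance was −0.72 in erythroid (−0.84 to −0.61), −0.27 in B (−0.44 to −0.11), −0.01 in epithelial (−0.08 to 0.05) and 0.46 in myeloid cells (0.39 to 0.54). Near-empty droplets had a ratio of 0.537.

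Single genes carried much of these differences. Ube2c alone gave 1052 of the 2982 erythroid G2/M UMIs, and with Ube2c left out the erythroid log2 balance was −0.31, its highest value when any 1 gene was left out; without Rrm2 it was −0.98, its lowest. In myeloid cells Pcna gave 599 of 2540 S UMIs, and without it the balance was 0.28. Of 31 other replication genes and 37 other mitotic genes, which hold none of the 40, the balance against mesenchymal cells was −0.41 in erythroid cells (−0.55 to −0.27), −0.14 in B cells (−0.32 to 0.05), −0.21 in epithelial cells (−0.28 to −0.15) and 0.072 in myeloid cells (−0.018 to 0.16). The erythroid tilt towards G2/M was thus present with both pairs of lists, while for myeloid cells the interval of the other lists included 0. The B-cell tilt was −0.10 at a limit of 10% mitochondrial UMIs and −0.020 with doublets kept.

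**Figure D1:**
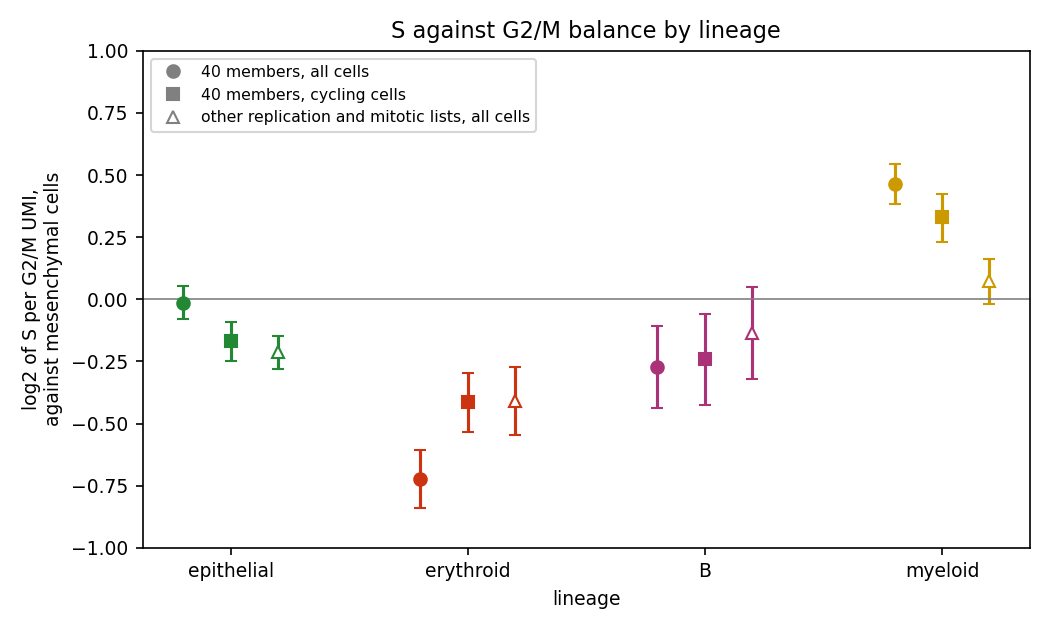
The log2 ratio of S to G2/M UMIs in each group, against that in mesenchymal cells (the zero line), with 95% counting intervals; circles are the 40 genes in all cells, squares the 40 genes in cycling cells and open triangles the other replication and mitotic lists. Erythroid circles lie lowest at −0.72 and myeloid circles highest at 0.46, and the squares and triangles of these groups lie nearer to 0.

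The genes were also counted by cell rather than by molecule. Each cell with at least 2000 UMIs was thinned to 2000, and a cell counted as positive for a phase at 2 UMIs of its genes. Either phase was seen in 81.0% of 63 erythroid cells, 54.4% of 68 B cells, 35.2% of 2032 mesenchymal cells, 30.1% of 777 myeloid cells and 21.5% of 712 epithelial cells. Without thinning the shares were 92.2% of 64 erythroid, 26.7% of 206 B, 58.7% of 2203 mesenchymal, 44.0% of 1003 myeloid and 49.1% of 770 epithelial cells. Erythroid cells were thus highest both ways, whereas B cells were second with thinning and lowest without it. The thinned B value rests on 68 of 206 cells, 43 of them from 1 cluster (Vpreb3), and when cells were thinned to 1000 UMIs 20.1% of B cells and 24.8% of mesenchymal cells were positive. Among erythroid cells 34.9% were positive for G2/M only, 44.4% for both phases and 1.59% for S only. Among myeloid cells 13.3% were positive for S only, 6.44% for both and 10.4% for G2/M only. With thinning mesenchymal cells were spread almost evenly, with 12.1% for S only, 11.9% for both and 11.2% for G2/M only. Epithelial cells were likewise, with 7.02%, 7.72% and 6.74%. Without thinning the spread was uneven, with 24.0%, 27.0% and 7.72% in mesenchymal and 23.5%, 20.6% and 4.94% in epithelial cells.

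The mature secretory cells of the tooth gave the background of these shares. In the ameloblast-like cluster led by Ambn (median 11662.5 UMIs), 4 of 287 cells (1.39%) were positive for S and 0 of 287 for G2/M, which allows a share of up to 1.28%. In the odontoblast-like cluster led by Bglap (median 10842.5 UMIs), 4.58% of 131 cells were positive for S and 6.87% for G2/M. All 5 groups lay above these shares for both phases.

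**Figure D2:**
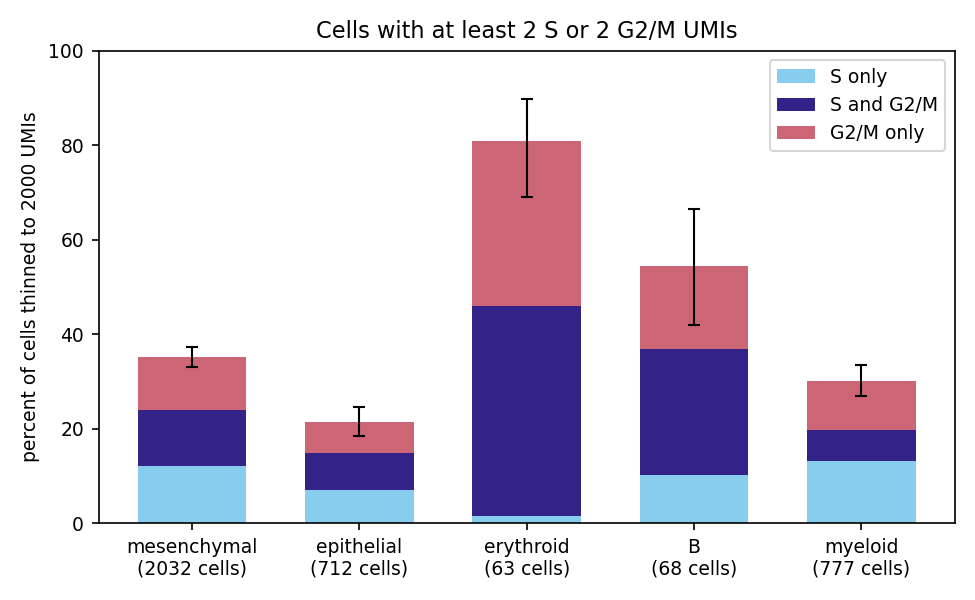
Percent of cells, thinned to 2000 UMIs, with at least 2 UMIs of S genes only, of both sets or of G2/M genes only, by group; bars are the 95% exact interval of the total. The total runs from 21.5% in epithelial to 81.0% in erythroid cells, and the S-only part is 1.59% in erythroid cells.

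Cells were also called cycling without using any of the 40 genes, by at least 3 UMIs of the other replication and mitotic lists after thinning. This gave 77.8% of erythroid cells (49 of 63), 47.1% of B cells (32 of 68), 30.6% of mesenchymal cells (622 of 2032), 19.1% of epithelial cells (136 of 712) and 16.9% of myeloid cells (131 of 777). Cycling cells held 91.6% of G2/M UMIs and 74.1% of S UMIs in mesenchyme. The same shares were 88.1% and 64.3% in epithelial cells, 83.5% and 61.6% in myeloid cells, and 98.9% and 93.6% in B cells. In erythroid cells the order was the other way, with 98.8% and 99.5%. Outside the cycling cells the ratio of S to G2/M was 1.43 in mesenchymal, 1.37 in epithelial, 1.49 in myeloid and 1.92 in B cells. In the 14 erythroid cells not called cycling it was 0.111, from 35.2 CPM of S and 316 CPM of G2/M RNA. The S RNA there was 1 UMI each of Mcm2 and Mcm4 and 2 UMIs of Rrm1, and Ube2c gave 23 of the G2/M UMIs. This ratio and the erythroid order of shares thus rest on very few S UMIs. Within cycling cells the ratio was 0.377 in mesenchyme, 0.335 in epithelium, 0.283 in erythroid, 0.319 in B and 0.473 in myeloid cells. Against cycling mesenchymal cells this was a log2 balance of −0.41 in erythroid (−0.53 to −0.30), −0.24 in B (−0.43 to −0.06), −0.17 in epithelial (−0.25 to −0.09) and 0.33 in myeloid cells (0.23 to 0.43). The B value was 0.090 at a limit of 10% mitochondrial UMIs and 0.048 with doublets kept. The erythroid value was −0.069 at a minimum of 1000 genes per cell and −0.059 when 5 UMIs were asked of a cycling cell, a rule under which the mesenchymal ratio was 0.329. Ube2c alone gave 1029 of the 2938 G2/M UMIs of cycling erythroid cells, against 3118 of 21586 in cycling mesenchymal cells. The balance within cycling cells was not computed without Ube2c, so a tilt of the other genes there is not shown.

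Single genes differed in how closely they followed the cycling cells, and those named in this paragraph were chosen after their values were seen. In mesenchyme Top2a, which untangles sister chromatids, stood at 285.7 CPM in cycling and 5.40 CPM in other cells, so 96.8% of its UMIs lay in cycling cells. Aurkb, the kinase that corrects chromosome attachment, had 97.1% there. At the other end Slbp, which binds histone mRNA, had 58.2% of its mesenchymal UMIs in cycling cells, Pcna 69.4% and Ccnb1 60.6%. Gins2 (63.0%), Mcm7 (67.3%) and Mcm6 (68.7%) lay below Pcna in mesenchyme. In myeloid cells Slbp and Pcna were the loosest, with 39.6% and 45.8% of their UMIs in cycling cells. Outside the cycling cells Pcna reached 102 CPM in myeloid against 38.7 CPM in mesenchymal cells, and Slbp 92.6 against 46.8 CPM. Ccnb1 was the only G2/M gene among the 8 lowest in mesenchyme.

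The genes were next compared 1 by 1 with mesenchymal cells, calling a gene at a 2-fold difference and at least 30 UMIs over both sides. In epithelial cells no gene was called higher and 12 of 40 lower, among all genes tested 10.5% higher and 20% lower. The median log2 ratio was −0.82 over the 40 and −0.29 over all 12920 genes. Of the 12, 9 were S genes and 3 G2/M genes. With reduced totals 4 were lower, the S gene Mcm3 and the same 3 G2/M genes, and none higher (15% and 13.9% of all genes), at a median of −0.52 beside 0.01 for all genes.

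Several genes of the helicase and its partners were among the S genes called lower in epithelial cells over all UMIs. Mcm3 stood at 10.8 CPM (110 UMIs) against 27.5 CPM (495 UMIs), a log2 ratio of −1.35 (−1.66 to −1.05); Mcm4 and Mcm5 were at −1.23 and Gins2, a subunit of the GINS complex that activates the helicase, at −1.19. Mcm2 was at −1.09 and the nucleotide enzyme Tyms at −1.12. Mcm6 (−0.75) and Mcm7 (−0.82), also of the helicase, were not called, and Rrm2 (−0.30), the DNA methylation cofactor Uhrf1 (−0.37), the uracil glycosylase Ung (−0.47) and Pcna (−0.96) were not called either. Hells, a chromatin remodeller, was the highest S gene, at 31.1 CPM (316 UMIs) against 28.9 CPM (519 UMIs), a log2 ratio of 0.11 (−0.10 to 0.31). Of the G2/M genes Ccnb1 (−1.36), Cdk1 (−1.33) and Aurkb (−1.31) were the 3 called lower. The nearest others were Ccnb2 (−0.99), Top2a (−0.97) and Ube2c (−0.95), and the highest were Plk1 (−0.28), the kinetochore protein Cenpf (−0.30), Ckap2l (−0.47) and Cdc20 (−0.52), with Mki67 at −0.54.

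Restricted to cycling cells, the epithelial and mesenchymal levels lay closer. None of the 40 was called in either direction, while 10.1% of all genes were called higher and 10.5% lower. The median was −0.06 over the 40 and 0.07 over all genes. The 40 ranged from −0.61 for Chaf1b, a subunit of the chromatin assembly factor, to 0.45 for Plk1.

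Erythroid cells had 25 of 40 genes called higher and 1 lower, among all genes tested 12.8% higher and 52.4% lower. The median was 1.22 over the 40 and −1.09 over all genes. With reduced totals 38 were higher and none lower, among all genes 27.5% higher and 26% lower, at medians of 2.26 and −0.05. With the whole erythroid cluster kept, including cells that carried haemoglobin without other erythroid markers, 14 were higher. The share of all genes was not counted for that choice of cells.

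The erythroid S genes were far from uniform. Rrm2, the limiting small subunit of ribonucleotide reductase, stood at 327.5 CPM (164 UMIs) against 23.0 CPM (413 UMIs) in mesenchymal cells, a log2 ratio of 3.83 (3.56 to 4.10). The origin-loading factor Cdc6 followed at 3.25, with 51.9 CPM (26 UMIs) against 5.5 CPM (98 UMIs), then Mcm2 and Slbp, both at 1.95. Tyms was at 1.19 and Pcna at 1.02. Hells ran the other way, at 8.0 CPM (4 UMIs) against 28.9 CPM, a log2 ratio of −1.85 (−3.74 to −0.49), which was −0.81 and no longer called with reduced totals. Gins2 (−0.12), Ung (0.03) and Cdc45 (0.27), another activator of the helicase, were not called. Genes of the same phase thus ranged from −1.85 to 3.83.

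Among erythroid G2/M genes Ube2c led, at 2101 CPM (1052 UMIs) against 183 CPM (3297 UMIs), a log2 ratio of 3.52 (3.42 to 3.62). It was found in 87.5% of the 64 cells. Ccnb2 followed at 3.10, with 369.5 against 43.1 CPM, then Mki67, a coat protein of mitotic chromosomes, at 3.02 (549 against 67.8 CPM) and the spindle protein Nusap1 at 2.75. Cdc20, which works with Ube2c on the anaphase-promoting complex, was at 0.07 (−0.63 to 0.69), from 21 UMIs (41.9 CPM) against 719 UMIs in mesenchymal cells. Ckap2l (0.16), Top2a (0.48) and Aurkb (0.70) were the other low ones, while Cdk1 was at 1.89 and Ccnb1 at 0.83. With reduced totals all 22 were called higher.

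Among cycling cells alone, 10 genes were higher in erythroid cells and 1 lower, among all genes 6.24% higher and 54.6% lower. With reduced totals 29 were higher and 1 lower (20.6% and 28.1% of all genes). Over all UMIs Rrm2 (2.91), Ube2c (2.46) and Cdc6 (2.33) were the highest of the 40 and Hells (−2.60) and Cdc20 (−0.94) the lowest.

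B cells had 11 genes called higher and 4 lower, among all genes tested 20.7% higher and 27.1% lower. The median was 0.51 over the 40 and −0.09 over all genes. With reduced totals the counts were also 11 and 4 (22.6% and 25.4% of all genes). At a limit of 10% mitochondrial UMIs, which left 50 B cells, 25 were higher and 2 lower, but the share of all genes was not counted at that limit.

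In B cells Rrm2 again led the S genes, at 101.9 CPM (46 UMIs) and a log2 ratio of 2.15 (1.68 to 2.59). Cdc6 was at 1.87 from 9 UMIs, Uhrf1 at 1.80 with 104 against 29.9 CPM, and Slbp at 1.47. Tyms, which makes thymidylate, stood apart at 11.1 CPM (5 UMIs) against 50.8 CPM (913 UMIs), a log2 ratio of −2.20 (−3.82 to −0.97). Chaf1b (−2.59, −7.89 to −0.09) and Cdc45 (−1.17, −4.22 to 0.71) rested on 1 and 2 UMIs, and Cdc45 was at 0.16 with a minimum of 1000 genes per cell and 0.57 at a limit of 10% mitochondrial UMIs. Ung was at −0.41, Mcm2 at 0.57 and Pcna at 0.86. Of the G2/M genes Ccnb2 (1.87, 157 against 43.1 CPM), the spindle kinesin Kif11 (1.79), Mki67 (1.51) and Ube2c (1.38, 476.5 CPM from 215 UMIs) were highest, and Top2a was at 1.06. Plk1 was the only one called lower, from 1 UMI (−2.09, −7.41 to 0.40). Aurka (−0.61), Ckap2l (−0.22), the cytokinesis kinesin Kif23 (−0.01), Ccnb1 (0.32), Cdk1 (0.35) and Cdc20 (0.47) were not called. Among cycling cells 14 genes were higher and 3 lower in B cells, among all genes 23.7% higher and 18.7% lower, with Tyms at −2.24 and Rrm2 at 2.35.

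Myeloid cells had no gene called higher and 6 lower, among all genes tested 17.8% higher and 35.0% lower. The median of −0.58 over the 40 lay near that of all genes, −0.51. With reduced totals 4 were lower and none higher (30.7% and 19.5% of all genes), at medians of −0.42 and −0.35. With each cell weighted equally 21 were lower, a weighting for which the share of all genes was not counted.

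No single role covered the highest or the lowest myeloid genes. Pcna stood at 134 CPM (599 UMIs) against 80.5 CPM (1447 UMIs), a log2 ratio of 0.74 (0.60 to 0.88), and Slbp at 0.60, with Cdc6 at 0.56 and Rrm2 at 0.25, all short of 2-fold. Ung (−1.46), Hells (−1.08) and Tyms (−1.04) were the S genes called lower, Uhrf1 followed at −0.91, and Mcm2 was at −0.58. Summed by role, the clamp, repair and chromatin genes (Pcna, Ung, Slbp, Hells, Uhrf1 and Chaf1b) were at 0.30 (0.21 to 0.39), and the other 7 role groups lay between −0.44 and −0.79. Pcna and Slbp gave 599 and 482 of the 1296 myeloid UMIs of that role, which also holds Ung, Hells and Uhrf1. Of the G2/M genes Ccnb1 was lowest, at 13.4 CPM (60 UMIs) against 67.4 CPM (1212 UMIs), a log2 ratio of −2.33 (−2.73 to −1.95). Cdc20 followed at −1.81, Cenpf at −1.20 and the spindle assembly factor Tpx2 at −0.95. Kif23 (0.08), the Cdk1 partner Cks2 (−0.05), Aurkb (−0.06) and Mki67 (−0.11) were near the mesenchymal level, and Cdk1 (−0.63), Ube2c (−0.64) and Top2a (−0.58) lay between. Among cycling cells no gene was higher and 2, Ccnb1 (−1.21) and Cdc20 (−1.35), were lower in myeloid cells, among all genes 15.4% higher and 29.0% lower.

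**Figure D3:**
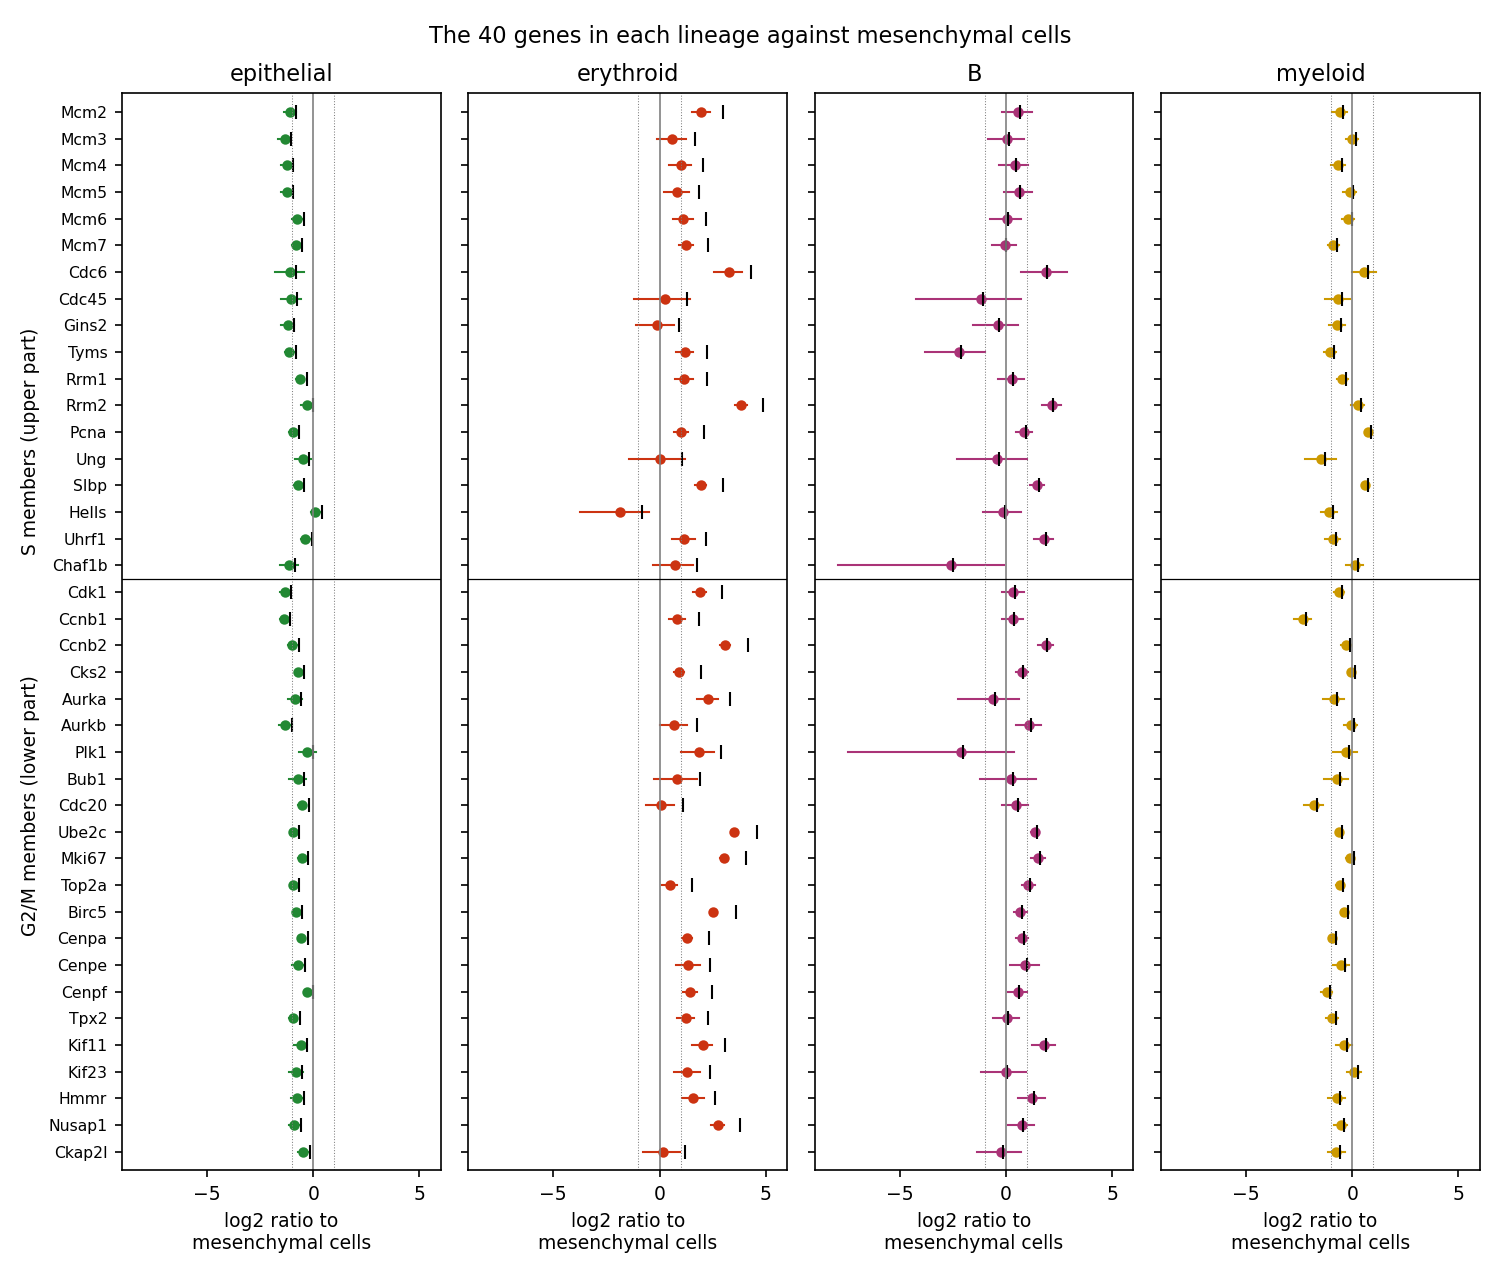
The log2 ratio of each of the 40 genes in 4 groups against mesenchymal cells, S genes above and G2/M genes below the dividing line; dots are totals over all UMIs with 95% counting intervals, black ticks the same with reduced totals, and dotted lines mark 2-fold. Erythroid cells show the widest spread, from Hells at −1.85 to Rrm2 at 3.83, and epithelial dots lie in a narrow band from −1.36 to 0.11.

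Pairs of genes that act together were used in different proportions by the groups; these pairs were chosen after the values were seen. Per UMI of Rrm1, the large subunit of ribonucleotide reductase, there were 0.481 UMIs of Rrm2 in mesenchymal, 0.592 in epithelial, 0.787 in myeloid, 1.77 in B and 3.04 in erythroid cells. The erythroid interval (2.22 to 4.21) and the B interval (1.07 to 2.98) both lay above the mesenchymal one (0.427 to 0.541). Myeloid clusters differed, with 2.38 (1.40 to 4.17) in the neutrophil-like cluster led by Camp and 0.494 (0.327 to 0.733) in the macrophage-like cluster led by Ccl7. Per UMI of Ube2c there were 0.218 UMIs of Cdc20 in mesenchymal (0.201 to 0.236) and 0.295 in epithelial cells (0.257 to 0.337), against 0.116 in B, 0.0968 in myeloid and 0.0200 in erythroid cells. Both dental groups thus held more Cdc20 per Ube2c than the 3 blood groups, whose highest upper bound was 0.176. Aurka per Aurkb was 0.624 in mesenchymal, 0.856 in epithelial and 1.86 in erythroid cells, and lower in B (0.192) and myeloid cells (0.353). Ccnb1 per Ccnb2 was 1.57 in mesenchymal and 1.20 in epithelial cells, and 0.324, 0.535 and 0.380 in erythroid, B and myeloid cells. Within cycling cells the same pair stood at 1.05, 1.29, 0.331, 0.551 and 0.432 in that order.

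Within the mesenchyme the ratio of cycling cells spanned a wider range over clusters with at least 15 cycling cells than over the 5 groups; clusters are named by their leading gene, and the ones described were chosen after their values were seen. Of the mesenchymal clusters, cycling cells made up 54.0% in the Lypd1 cluster, which carries markers of the apical mesenchyme, 49.8% in the Tac1 cluster and 43.4% in the Fgf8 cluster, but 2.29% in the odontoblast-like Bglap cluster. The Lypd1 and Fgf8 clusters had opposite tilts. Lypd1 held 1110 CPM of S and 1971 CPM of G2/M RNA, a ratio of 0.563, and Fgf8 held 646 and 2365 CPM, a ratio of 0.273. Within their cycling cells the ratios were 0.495 (0.476 to 0.515) in Lypd1 and 0.237 (0.221 to 0.254) in Fgf8, and the other lists gave 1.19 and 0.760. The Fgf8 interval lay below that of cycling erythroid cells (0.262 to 0.306). Of the other mesenchymal clusters, those with at least 15 cycling cells lay between in their S to G2/M ratio. It was 0.386 in Tac1, 0.348 in Bmp3, 0.288 in Fmod and 0.284 in Notum, while Sfrp2 had 5 and Bglap 3 cycling cells. The other lists gave 1.02 in Tac1, 0.871 in Notum, 0.790 in Fmod and 0.628 in Bmp3. With those lists Bmp3 thus lay below Fgf8, and Fgf8 was not the lowest.

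Epithelial clusters ranged from mostly cycling to almost without cycling cells. The Grp cluster, which expresses Sfrp5, had 62.4% cycling cells and 2528 CPM of G2/M RNA. The Krt17 cluster had 20.7% cycling cells and within its 17 cycling cells a ratio of 0.192 (0.163 to 0.226), against 0.357 in Grp, with 0.603 against 0.857 in the other lists. The Dspp cluster had 3.03% cycling cells, and the Ambn cluster 1.05%, with 88.3 CPM of S and 30.9 CPM of G2/M RNA, both below the level in near-empty droplets. Over all UMIs Hells was at a log2 ratio of −0.28 in the Ambn cluster against the other epithelial cells, with 121 UMIs in Ambn and 195 in the rest. With reduced totals the median of the S genes in this comparison rose from −3.63 to −2.92. The interval of 1 S gene, Hells, then lay above 0, so its direction depended on the totals. Hells made up 23.2% of all UMIs of the 40 genes in the Ambn cluster and was found in 31.8% of its 296 cells, against 1.74% of such UMIs in the Grp cluster. In epithelium as a whole 43.4% of Hells UMIs lay in cycling cells, against 78.9% in mesenchyme.

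**Figure D4:**
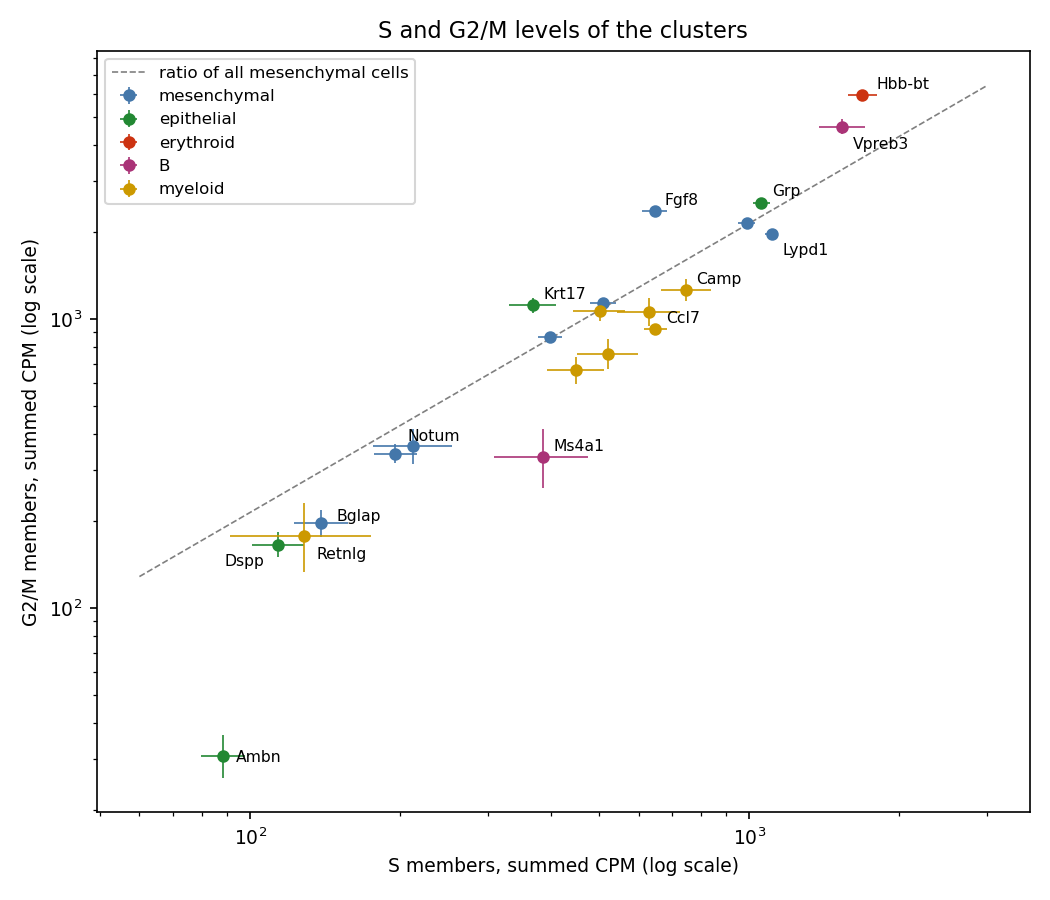
Summed CPM of the S genes against that of the G2/M genes in each cluster, both on log scales, with 95% counting intervals; the dashed line is the ratio of all mesenchymal cells. Fgf8, Krt17, Hbb-bt (erythroid) and Vpreb3 lie above the line, on the G2/M side, and Lypd1, Ms4a1 and Ambn below it.

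B and neutrophil-like cells each held 2 clusters that differed in their share of cycling cells. In the B precursor-like cluster led by Vpreb3 (81 cells), 65.1% of the 43 cells with at least 2000 UMIs were cycling, with 1534 CPM of S and 4634 CPM of G2/M RNA. The Ms4a1 cluster of other B cells (125 cells) had 16.0% of 25 cycling (4.54 to 36.1), with 385 CPM of S and 332 CPM of G2/M RNA. The precursor-like cells held 99 UMIs of Top2a against 1 in the other B cells, 209 against 6 of Ube2c and 33 against 1 of Cdk1. In the neutrophil-like cluster led by Camp, a granule gene of immature neutrophils, 28.3% of cells were cycling, against 1.47% in the Retnlg cluster. Ube2c stood at 95 UMIs in Camp against 1 in Retnlg, and Rrm2 at 50 against 0. Of the macrophage-like clusters, Il1a had 26.9%, H2-Eb1 22.5% and Ccl7 17.3% cycling cells.

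Ccnb1, the main mitotic cyclin, was found at high level in mesenchymal cells that held little other cell cycle RNA, a pattern chosen for description after its values were seen. Of 97 cells with at least 2000 UMIs and at least 5 Ccnb1 UMIs, 71 were cycling by the other lists and 26 were not. All 26 were mesenchymal, with 5 to 41 Ccnb1 UMIs each (median 14), and they held 403 of the 1212 mesenchymal Ccnb1 UMIs. Their median was 3 UMIs over the other 39 genes together, at a median depth of 13041 UMIs. In 22 of the 26 there was no UMI of Ccnb2, Cdk1, Cdc20, Ube2c, Top2a or Birc5, the survivin subunit of the chromosomal passenger complex. The cells lay in 8 clusters: 11 in Bglap, 5 each in Fmod and Notum, and 1 each in Bmp3, Fgf8, Lypd1, Sfrp2 and Tac1. In the Bglap cluster they held 175 of 183 Ccnb1 UMIs.

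Leaving out these 26 cells lowered mesenchymal Ccnb1 from 67.4 to 46.6 CPM and the ratio of Ccnb1 to Ccnb2 from 1.57 to 1.05. In the Bglap cluster that ratio went from 36.6 (183 to 5 UMIs, interval 15.4 to 114) to 4.00 (8 to 2 UMIs, 0.798 to 38.7), and these intervals overlap. The ratio of S to G2/M there went from 0.707 to 1.64. The cells left out were chosen for high Ccnb1, so a fall of mesenchymal Ccnb1 was fixed by that choice. The mesenchymal S to G2/M ratio moved little, from 0.467 to 0.472. Against the remaining mesenchymal cells epithelial Ccnb1 was at −0.83 and no longer called, myeloid Ccnb1 at −1.79, B Ccnb1 at 0.85 and erythroid Ccnb1 at 1.36, which was then past 2-fold. Chaf1b alone of the other 39 genes was seen without other cycle RNA in like manner, in 4 cells with 5 or more UMIs. None of these was cycling, and their median was 3.5 UMIs of the other genes. Unlike the Ccnb1-rich cells they were not all mesenchymal: 2 were mesenchymal, 1 was myeloid and the other lay outside the 5 groups.

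**Figure D5:**
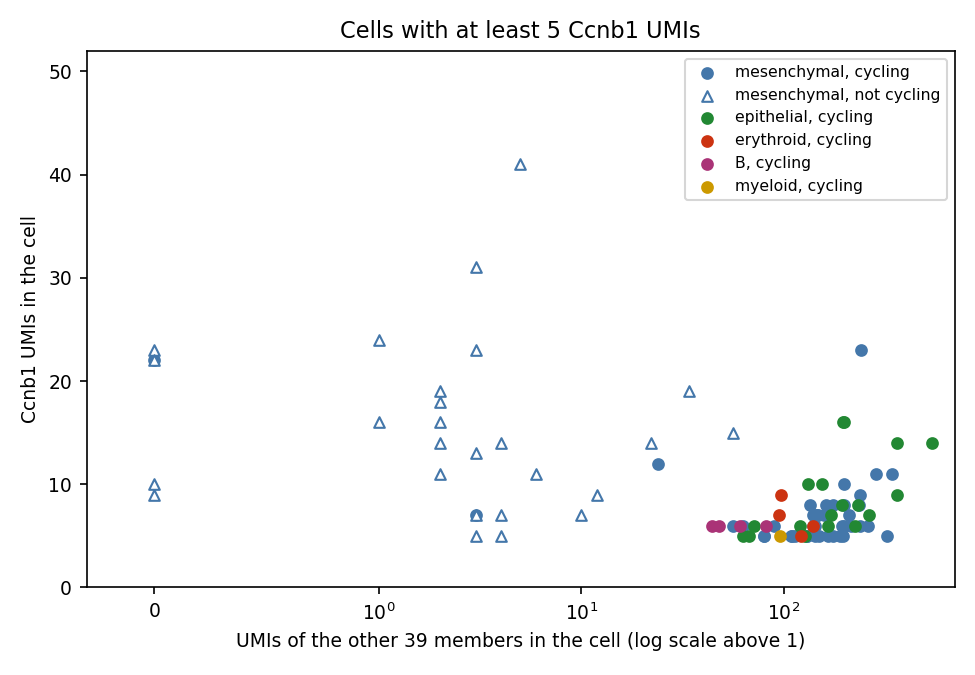
The 97 cells with at least 5 Ccnb1 UMIs, by their UMIs of the other 39 genes (log scale above 1) and their Ccnb1 UMIs. Filled points are cycling and open triangles not. A cycling mesenchymal cell with 54 Ccnb1 UMIs lies above the end of the axis and is not drawn. Open triangles, all mesenchymal, lie mostly at the left, with up to 41 Ccnb1 UMIs beside a median of 3 UMIs of the other genes.

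Other genes of the cycle, from the lists that hold none of the 40, were counted by the same rule against mesenchymal cells. In erythroid cells 12 of 31 replication genes and 22 of 37 mitotic genes were called higher and 1 and 0 lower; in epithelial cells none was higher and 10 and 5 lower. In B cells 9 of 31 and 7 of 36 measured were higher and 3 and 2 lower, and in myeloid cells none was higher and 6 and 8 lower. With reduced totals 29 and 34 were higher and none lower in erythroid cells, and 4 and 1 were lower in epithelial cells. Their medians for replication and mitotic genes were 0.82 and 1.20 in erythroid, 0.35 and 0.41 in B, −0.80 and −0.72 in epithelial and −0.48 and −0.76 in myeloid cells, beside the medians and shares of all genes given above for the 40. Of the replication genes, Orc1 of the origin recognition complex was at 3.41 and Clspn at 2.21 in erythroid cells, Pold1, the catalytic subunit of a replicative polymerase, at 2.30 and Cdc7 at 2.04 in B cells, and Pole2 at −1.85 in epithelial cells. Of the mitotic genes, Fbxo5, an inhibitor of the anaphase-promoting complex, was at 2.66 in erythroid, 2.18 in B and −1.36 in epithelial cells, and Ttk, a checkpoint kinase, at −1.89 and Kif20a at −1.72 in myeloid cells. The members of the nucleotide pathway parted in B cells, where the thymidine kinase Tk1 (−1.23, 4 UMIs) was low like Tyms.

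Of the regulators of the cycle, E2F factors had the largest ratios in erythroid and B cells among those named by the rule. E2f2, an activating E2F transcription factor, stood at 286 CPM (143 UMIs) in erythroid and 117 CPM (53 UMIs) in B cells against 4.4 CPM (79 UMIs) in mesenchymal cells, log2 ratios of 6.02 and 4.74. It was at 1.68 in myeloid and 0.71 in epithelial cells. E2f8, a repressing E2F factor, was at 3.96, 3.11 and 1.13 in erythroid, B and myeloid cells. E2f3 was the reverse in erythroid cells, at 1 UMI and a log2 ratio of −3.25 (−8.56 to −0.76), and Wee1, the kinase that holds Cdk1 inactive, was at −2.36 there (−5.41 to −0.50, 2 UMIs) and at −1.61 in myeloid cells. Ccne1, the cyclin of the G1 to S transition, was at −1.91 and Skp2 at −1.70 in epithelial cells. Of 20 regulators 9 were called higher and 4 lower in erythroid, 9 and 1 in B, 2 and 6 in myeloid, and none and 4 in epithelial cells. Beside these, 12.8% of all genes were higher and 52.4% lower in erythroid, 20.7% and 27.1% in B, 17.8% and 35.0% in myeloid, and 10.5% and 20% in epithelial cells, so the myeloid counts were near or below the shares over all genes. With reduced totals 15 regulators were higher and 3 lower in erythroid cells.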

How the data were processed

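RNA of single cells was measured in 1 pool. The authors deposited raw UMI counts of each gene in each barcode as 1 unfiltered matrix, made with software version 3.0.2 per the file headers. The submitters' processing notes name build mm10, R 3.4.1 and Seurat 3.4.1; aligner and annotation: not given in the sources used here. Both labelled lanes (2) could not be separated, so p-values were not computed. The matrix held 6794880 barcodes and 68931830 UMIs. A barcode was kept when it had at least 500 genes and its 13 mitochondrial genes made up at most 20% of its UMIs (4775 barcodes).

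From these counts, 122 likely doublets were removed (Scrublet in scanpy 1.11.5, score above 0.15; the automatic threshold called 1), and 144 cells above 5% haemoglobin without erythroid precursor markers, a step chosen after seeing the data. Cells were clustered with Leiden at resolution 1 on 2000 variable genes and 30 components, leaving out every gene of the cell cycle lists, and named by listed markers; 1 cluster of 38 cells stayed unnamed. UMIs were summed per group. Ratios have exact conditional binomial intervals and shares Clopper-Pearson intervals. A gene was measured at 30 UMIs over both sides, and a fold against a group at 0 used a floor of 3 counts over the group. Scripts ran under Python 3.11.15 and were tested on simulated data.

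The 40 genes and all lists were chosen with earlier results of these data known. Genes named in the text are, per group and phase, up to 4 with the highest and 4 with the lowest ratio, a fixed set (Pcna, Mcm2, Rrm2, Tyms, Mki67, Top2a, Cdk1, Ccnb1, Cdc20 and Ube2c), and up to 2 per other list and direction, of which 1 is not reported here. Alternatives varied the gene minimum, mitochondrial limit, doublets, resolution, weighting, totals, fold, thinning and cycling rule.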

Additional observations from a re-analysis of the deposited data

How the results depend on the processing

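No paired analysis was possible because the 2 lanes share 1 matrix whose columns carry no sample, and for the same reason leaving out a replicate could not be run. Over 24 alternatives, 28 summary results gave 290 values, of which 205 stayed within their interval or within 1.5 times a count, 83 moved and 2 reversed. Of 1600 ratios of single genes (160 under each of 10 alternatives) 1334 stayed within their interval, 264 moved and 2 reversed. The alternatives with the whole erythroid cluster kept, Ube2c left out and the Ccnb1-rich cells left out were chosen after seeing the data. Depth limits B cells most: 50 of 206 remained at 1000 genes or at 10% mitochondrial UMIs, and 26 of 64 erythroid cells at 1000 genes. The causes of the moves were not tested. Shares over all genes were counted at 2-fold with all UMIs and with reduced totals, and not under the other alternatives. Counts of called genes under those alternatives therefore have no such share beside them.

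With at least 1000 genes per cell, the erythroid log2 balance was −0.36, and within cycling cells −0.069 in erythroid and −0.032 in B cells. Genes called in B cells were 27 higher and 1 lower, 3 were lower in myeloid cells, and Cdc45 reversed in B cells (0.16). Cells positive for either phase were 100% of erythroid, 78% of B and 33.6% of myeloid cells, and cycling cells 100% of erythroid and 68% of B cells. At 10% mitochondrial UMIs the B balance was −0.10 and reversed within cycling cells (0.090), 25 genes were higher and 2 lower in B cells, Cdc45 reversed (0.57), positive cells were 76.5% of B and 35.2% of myeloid cells, and cycling cells 67.6% and 21.8%. With doublets and haemoglobin-carrying cells kept the B balance was −0.020, and within cycling cells −0.059 in epithelial and 0.048 in B cells, the latter a reversal. With the whole erythroid cluster kept, 14 genes were higher and 0 lower, 64.8% of cells positive and 61.5% cycling.

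With each cell weighted equally the mesenchymal ratio was 0.521 and the erythroid balance −0.91, and calls were 7 lower in epithelial, 6 higher and 7 lower in B and 21 lower in myeloid cells. Leaving out 1 gene at a time, the mesenchymal ratio ran from 0.406 to 0.542 (the latter without Ube2c), the erythroid balance from −0.98 to −0.31 (the latter without Ube2c) and the myeloid balance from 0.28 to 0.55. With the other lists the mesenchymal ratio was 1.15 and the balance −0.21 in epithelial, −0.41 in erythroid and 0.072 in myeloid cells. With reduced totals 4 genes were lower in epithelial cells and 38 higher and 0 lower in erythroid cells. At 1.5-fold 30 were lower in epithelial cells, 18 higher in B cells, and 2 higher and 19 lower in myeloid cells.

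Positive cells in mesenchymal, epithelial, B and myeloid cells were 24.8%, 16.9%, 20.1% and 16.4% when thinned to 1000 UMIs, 41.4%, 26.1%, 83.9% and 39.1% at 3000 UMIs, 58.7%, 49.1%, 26.7% and 44.0% without thinning (erythroid 92.2%) and 57.8%, 39.9%, 76.5% and 61.6% at 1 UMI. At 3 UMIs they were 27.3% of mesenchymal, 17.4% of epithelial and 17.6% of myeloid cells. Cycling cells in mesenchymal, epithelial and myeloid cells were 43.0%, 25.1% and 27.0% at 2 UMIs, 21.4%, 13.6% and 9.78% at 5 UMIs, and 38.7%, 23.5% and 23.2% at 2 UMIs of either list, with a mesenchymal ratio of 0.406, 0.329 and 0.399 within them. At 5 UMIs the balance within cycling cells was −0.059 in erythroid and 0.55 in myeloid cells.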
